A study of Drosophila mojavensis with 14 samples.

Results

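These 100 transcripts were lower in the lower reproductive tract of virgin Drosophila mojavensis females than of mated females after both kinds of mating, and in neither mating was their mean at 6 h below that at 15 min. They were chosen by that pattern from the 14471 transcripts on the array that are named by a GI number, out of 14519 in all. The choice used log2 probe intensities, quantile normalized over the 14 arrays and averaged per transcript. In each mating, the mean of each of the 4 states (virgin, 15 min, 2 h and 6 h) was set against the mean of the other 3, and the virgin state had to lie farthest out, and below, in both matings. Of the 614 transcripts with that pattern, 276 were not lower at 6 h than at 15 min in either mating, and the 100 with the largest gap in the weaker of the matings were taken. On the background-corrected scale used for the values below, 12 of the 100 were lower at 6 h than at 15 min after conspecific mating and 3 after heterospecific mating. The height of each transcript above the virgin level, and 6 h against 15 min, are therefore descriptions and are not tested as findings. The rule did not compare the matings with each other, but it took the gap to virgin in each of them and ranked by the smaller, so the difference between the matings is not free of the choice. It used group means only, which a low reading on 1 virgin array also lowers.

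The females came from 1 D. mojavensis isofemale line (ANZA 402.17). They were left virgin, or had copulated with males of the same line (conspecific) or of 1 isofemale line of D. arizonae (heterospecific), a closely related desert species. All flies were collected as virgins and aged 10 to 12 days with the sexes apart, each female to be mated met 2 males in a vial, and mated tracts were dissected 15 min, 2 h or 6 h after copulation. Each of the 7 groups had 2 arrays, and each array held RNA pooled from 20 to 25 tracts and amplified before labelling with Cy3. One line per species stands for each species here, and a pooled sample hides differences between females. In a pooled tract, more cells of a type, more RNA per cell and RNA brought in by the male cannot be told apart.

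The lower reproductive tract of a Drosophila female takes up the ejaculate, stores sperm and passes eggs to the outside. Seminal fluid proteins made in the male accessory glands are known from D. melanogaster to change the transcripts of this tissue, the storage of sperm and the rate of egg laying. In D. mojavensis and its relatives mating is followed by an insemination reaction, a mass that fills the uterus and lasts longer in many crosses between species. The array files name these transcripts by number, and no table used here pairs the numbers with genes, so no role, pathway or sequence is given for them. Markers of the tissue could not be checked for the same reason. The 4 transcripts whose array names mark them as accessory gland proteins (Acp) had summed log2 levels of 27.5 to 28.0 on the virgin arrays, 27.8 to 28.7 on the conspecific arrays and 30.3 to 35.6 on the heterospecific arrays, and 3 of the 4 were not above background in virgins. The higher heterospecific sum came from Acp2, at 10.97 against 6.83 after conspecific mating at 15 min, and Acp11, at 8.86 against 7.05. Acp48 had 6.46 against 6.63 at that time, and Acp7 was lower after heterospecific mating at all 3 times (7.46 against 7.98 at 6 h).

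Levels are given as log2 intensity after background correction, quantile normalization and summary over the probes of a transcript, so that a difference of 1 is a doubling. The arrays differed in brightness. The upper quartile of the raw probe intensity lay between 2014.8 and 2912 on 10 arrays, and between 943 and 1413 on the other 4, which are called dim here. These were virgin replicate 2, conspecific 15 min replicate 2, conspecific 2 h replicate 1 and conspecific 6 h replicate 1, so no heterospecific array was dim. The file headers place the array images on 2 days, of which the first holds 6 arrays (5 heterospecific arrays and conspecific 6 h replicate 2) and the second the remaining 8. Results that touch the dim arrays or the days are given with and without them.

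The 100 transcripts were mostly expressed well above background. Their mean level over the arrays had a median of 10.08 and ran from 7.35 to 13.78, beside a median of 8.20 over all transcripts. In every group 95 of the 100 were above the background limit, as were 56.1% of all transcripts, and none had a saturated probe. The other 5, GI17459, GI20431, GI12002, GI13435 and GI23677, were not above background in virgins, and GI23677 was also not above it in at least 1 mated group. Against the background limit of the virgin arrays, the 6 h means after conspecific and heterospecific mating were 1.02-fold and 1.05-fold for GI20431. They were 1.078-fold and 1.235-fold for GI12002, and 1.064-fold and 1.305-fold for GI13435. For GI23677 they were 0.92-fold and 0.95-fold, so no rise is shown for it at 6 h. The mean over the probes of a transcript is what the rule used, so an excess of probes higher in mated arrays came with the choice. Every probe was higher in the mean of the mated arrays than of the virgin arrays for 79 of the 100, beside 15.1% of all transcripts. All probes but 1 were higher for 18 others, beside 17.3% of all transcripts.

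**Figure D1:**
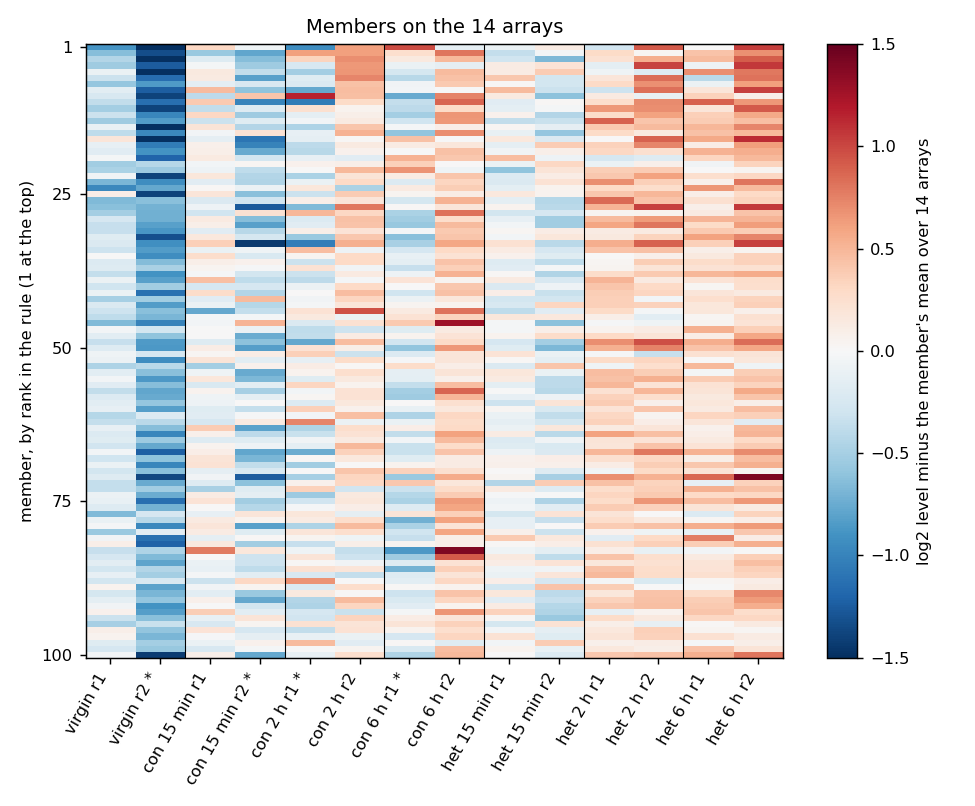
Log2 level of each of the 100 transcripts (vertical axis, by rank in the rule) on each of the 14 arrays (horizontal axis), with the transcript's mean over the 14 arrays taken off; stars mark the dim arrays. Virgin replicate 2 was below the mean for 100 transcripts and virgin replicate 1 for 93, while heterospecific 6 h replicate 2 was below it for 3.

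After conspecific mating the median transcript stood 0.35 above the virgin mean at 15 min on the log2 scale (1.27-fold), 0.57 at 2 h (1.48-fold) and 0.63 at 6 h (1.55-fold). After heterospecific mating the medians were 0.42 (1.33-fold), 0.80 (1.74-fold) and 0.83 (1.78-fold). Both sets of differences share the same 2 virgin arrays. The medians over all 14519 transcripts were between -0.01 and 0.01 in the 6 groups.

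Single transcripts differed widely in height. At 6 h they stood from 0.13 to 1.66 above the virgin mean after conspecific mating and from 0.29 to 1.91 after heterospecific mating. In all 6 mated groups 96 of the 100 were above the virgin mean, beside 14.7% of all transcripts, a difference the choice had used. The others, GI13085, GI19603, GI13074 and GI13354, were at or below it in at least 1 group. By their measured means 7 transcripts stood at least 1.5-fold above virgin in all 6 groups (GI21493, GI13961, GI12540, GI11971, GI21266, GI17459 and GI13942), against 0.152% of all transcripts, from a contrast the choice had used. GI17459 was not above background in virgins, so its height is known only as a bound, which is 1.22-fold at 6 h after conspecific mating. At 15 min after both matings and at 2 h after conspecific mating its mean was below the virgin background limit (7.67). No rise is shown in those groups, so as a bound the 1.5-fold height does not hold for it in all 6 groups.

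The rule kept 6 h from lying below 15 min, which favours low means at 15 min, so the counts by time describe the list and nothing is read from their excess. From 15 min to 2 h the median transcript gained 0.23 after conspecific mating, with 78 higher and 22 lower, and 0.40 after heterospecific mating, with 91 higher and 9 lower. From 2 h to 6 h the medians were 0.06 (59 higher, 41 lower) and 0.02 (52 higher, 48 lower). At 2 h 71 transcripts were above their 15 min mean in both matings, beside 28.9% of all transcripts, and at 6 h 33 were above their 2 h mean in both, also beside 28.9%. A step up at each time in both matings was seen for 18, beside 7.71% of all transcripts and 11.5% of the 8138 above background in every group, and 21 had their highest mean at 2 h in both, beside 9.66% and 10.9%. The levels at 2 h and 6 h thus did not show 1 common direction across the list.

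**Figure D2:**
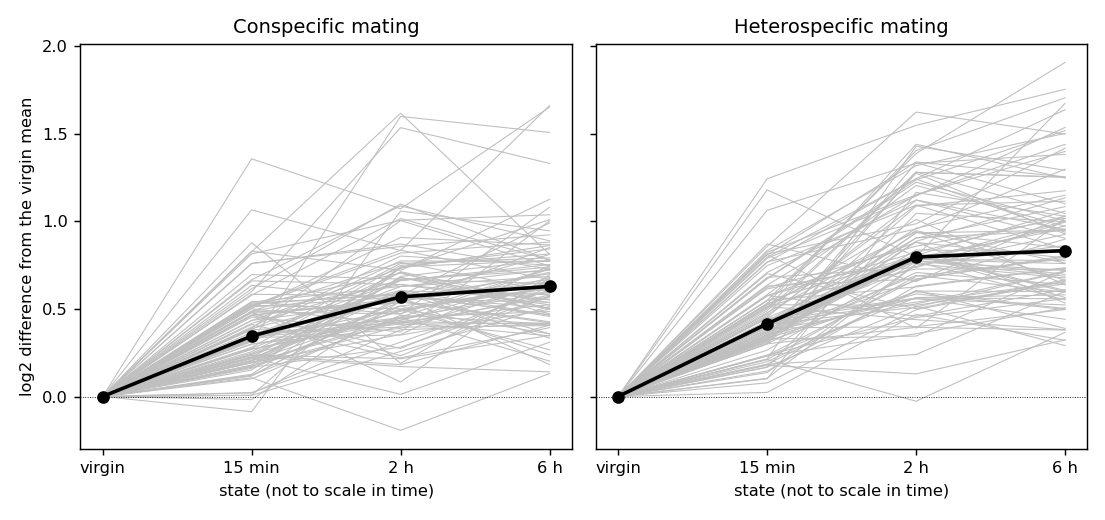
Log2 difference of each group mean from the virgin mean (vertical axis) for the 100 transcripts (grey lines) and their median (black) at each state (horizontal axis, not to scale in time), for each mating. The medians reach 0.57 and 0.80 at 2 h and 0.63 and 0.83 at 6 h.

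GI21493 ranked first. Its log2 level was 11.71 and 11.01 on the 2 virgin arrays, 12.90 and 12.53 at 15 min after conspecific mating, 11.66 and 13.21 at 2 h and 13.57 and 12.45 at 6 h, and 12.49 and 12.71, 12.30 and 13.51, and 12.60 and 13.63 at the same times after heterospecific mating. Every mated array but 1 was above both virgin arrays: conspecific 2 h replicate 1, a dim array, lay just below virgin replicate 1. Averaged over the 3 times, the mean was 1.36 above virgin after conspecific mating (SE 0.48, 2.57-fold) and 1.52 above it after heterospecific mating (SE 0.48, 2.86-fold).

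GI20124 had a lower level than the median of the list. It measured 8.56 and 7.87 in virgins, 8.63 and 8.41 at 15 min after conspecific mating, 9.81 and 9.81 at 2 h and 9.44 and 10.00 at 6 h, and 8.84 and 9.16, 9.49 and 9.22, and 9.62 and 9.88 after heterospecific mating. At 15 min after conspecific mating the arrays overlapped with the virgins, and all other mated arrays stood clear of them. The means over the 3 times were 1.14 above virgin after conspecific mating (SE 0.21, 2.20-fold) and 1.16 above it after heterospecific mating (SE 0.21, 2.23-fold).

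GI16685 stood clear of the virgin arrays only at 2 h and 6 h. Its levels were 8.15 and 6.99 in virgins, 8.39 and 7.95 at 15 min after conspecific mating, 8.92 and 9.29 at 2 h and 8.73 and 9.07 at 6 h, and 8.28 and 7.92, 8.81 and 9.13, and 9.06 and 9.49 after heterospecific mating. At 15 min, 1 array of each mating was below virgin replicate 1, whereas every later array was above it. Over the 3 times the transcript was 1.15 above virgin after conspecific mating (SE 0.28, 2.23-fold) and 1.21 above it after heterospecific mating (SE 0.28, 2.32-fold).

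GI13961 had all 12 mated arrays above both virgin arrays. Its values were 8.33 and 7.62 in virgins, 8.85 and 8.34 at 15 min after conspecific mating, 8.63 and 9.52 at 2 h and 8.78 and 8.74 at 6 h, and 9.0 and 9.08, 8.73 and 9.89, and 8.79 and 9.93 after heterospecific mating. The lowest mated array, conspecific 15 min replicate 2, was a dim array that almost met virgin replicate 1. At 2 h and 6 h after heterospecific mating the replicates were more than 1 log2 unit apart. Its means over the 3 times were 0.83 above virgin after conspecific mating and 1.26 after heterospecific mating, each with an SE of 0.38.

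GI12540 and GI22431 completed the 6 highest ranked transcripts. GI12540 was 10.18 and 8.51 in virgins, 10.42 and 9.90 at 15 min after conspecific mating, 9.76 and 10.94 at 2 h and 10.01 and 10.75 at 6 h, and 10.39 and 10.65, 10.21 and 10.08, and 10.98 and 11.06 after heterospecific mating. GI22431 was 10.16 and 9.34 in virgins, 10.62 and 9.66, 10.29 and 11.22, and 10.07 and 10.92 after conspecific mating, and 10.88 and 10.21, 10.66 and 11.32, and 10.08 and 11.30 after heterospecific mating. In both transcripts virgin replicate 2 lay below all mated arrays, whereas virgin replicate 1 lay within their range. For GI12540 the virgin SD was 1.18 (n = 2), above its mean difference from virgin of 0.95 after conspecific mating (SE 0.41). For GI22431 that difference was 0.71 (SE 0.43), and 0.99 after heterospecific mating.

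**Figure D3:**
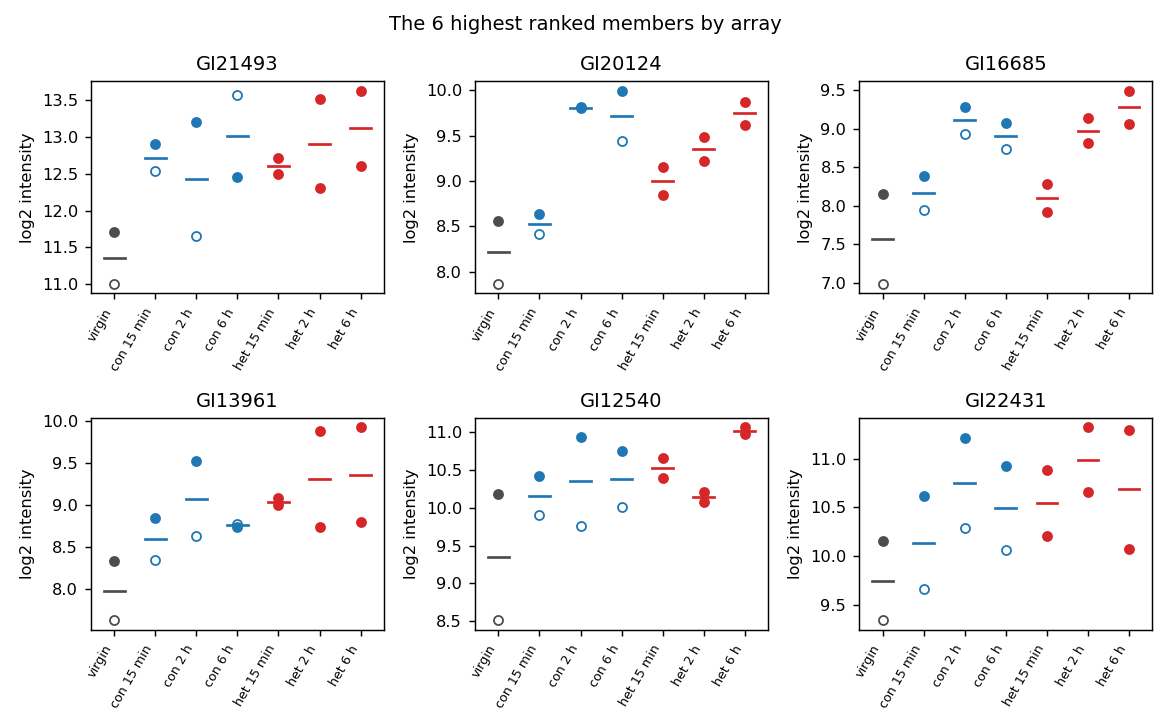
Log2 intensity (vertical axis) of the 6 highest ranked transcripts on each array, by group (horizontal axis; grey virgin, blue conspecific, red heterospecific); bars are the means of 2 arrays and open circles are dim arrays. GI13961 is the only one of these 6 with both virgin arrays below all 12 mated arrays.

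The groups overlapped for most of the list. Both virgin arrays were below all 12 mated arrays for 19 of the 100, against 0.992% of all transcripts. Since the virgin difference chose the transcripts, nothing is read from that excess. The 19 did not coincide with the highest ranks: of the first 6 ranks only GI13961 was among them. GI13714, at rank 20, had 10.51 and 10.61 in virgins, 10.99 and 11.06, 11.10 and 11.12, and 11.39 and 11.04 after conspecific mating, and 10.93 and 11.34, 10.93 and 11.10, and 10.98 and 11.36 after heterospecific mating. Its virgin arrays were close together and its mated arrays clear of them at every time, at a height of 0.56 and 0.55 over the 3 times (SE 0.16 in each mating).

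GI11971, at rank 11, combined separated groups with a larger height. It measured 8.75 and 7.87 in virgins, 8.89 and 9.07 at 15 min after conspecific mating, 9.49 and 9.31 at 2 h and 8.86 and 9.54 at 6 h, and 9.11 and 9.23, 9.91 and 9.96, and 9.44 and 10.18 after heterospecific mating. The means over the 3 times were 0.88 above virgin after conspecific mating (1.84-fold) and 1.33 after heterospecific mating (2.51-fold), each with an SE of 0.26. GI13714 and GI11971 were picked from the 19 after their values were seen.

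The virgin contrasts had chosen the transcripts, so the calls of the limma fit across all 14519 transcripts are given for them only as a description. In the mean of the 3 conspecific groups against virgin, 0 of the 100 passed a Benjamini-Hochberg adjusted p of 0.05 (0.0413% of all transcripts did), and 42 had an unadjusted p under 0.05 (3.91% of all transcripts). In the mean of the heterospecific groups against virgin 1 passed (0.103% of all transcripts), and 83 had an unadjusted p under 0.05 (15.2%). That transcript was GI17459, with 6.73 and 6.93 in virgins, 7.71 and 7.60, 7.87 and 7.23, and 7.84 and 8.07 after conspecific mating, and 7.55 and 7.75, 8.0 and 7.96, and 8.36 and 8.17 after heterospecific mating. Its measured difference over the 3 heterospecific groups was 1.14 (SE 0.17, limma adjusted p = 0.0478). Neither virgin array was above background, so its height is a bound, which was not tested: at least 1.23-fold over the 3 heterospecific groups and at least 1.52-fold at 6 h after heterospecific mating. The bound sets the mated mean against the background limit of the virgin arrays, or the measured value where higher.

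Dim arrays read lower for these transcripts. In virgins, replicate 2, the dim array, was below replicate 1 for 91 of the 100, with a median of -0.51 between them, in a group whose low mean had been chosen. In the conspecific groups the dim array was below the bright one for 74 at 15 min (median -0.31), 73 at 2 h (median -0.36) and 89 at 6 h (median -0.49). The medians of the same differences over all transcripts lay between -0.03 and 0.04, and over the 8138 transcripts above background in every group they were -0.22, -0.08, -0.00 and -0.21. In all 4 groups at once the dim array was the lower for 52 of the 100, against 29.5% of those 8138. The heterospecific pairs, which held no dim array, had medians of 0.15, -0.05 and -0.16 between replicate 1 and replicate 2.

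**Figure D4:**
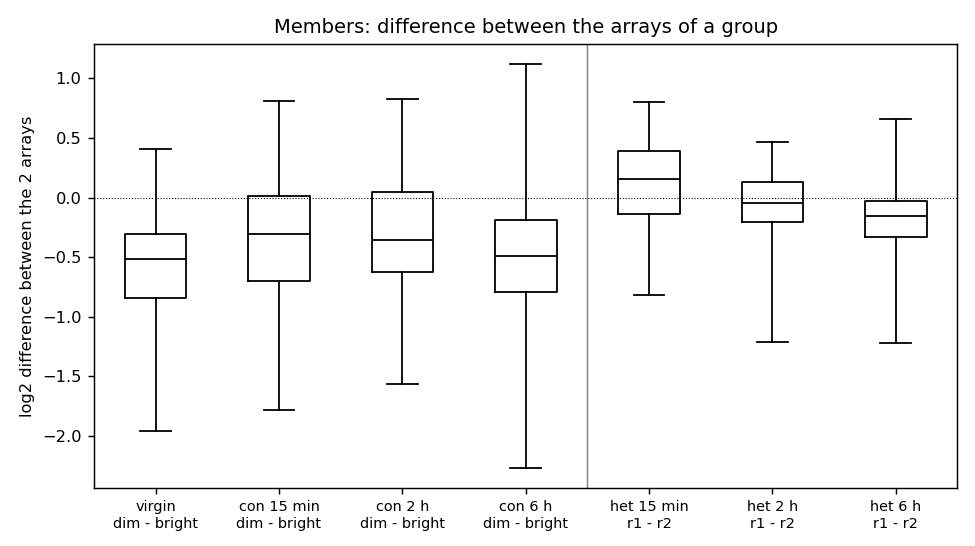
Log2 difference between the 2 arrays of each group (vertical axis) over the 100 transcripts, with the dim array minus the bright one for the virgin and conspecific groups and replicate 1 minus replicate 2 for the heterospecific groups (horizontal axis); boxes show the quartiles, the line the median and whiskers the full range. The medians of the 4 groups with a dim array run from -0.51 to -0.31, and those of the other groups from -0.16 to 0.15.

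With the dim arrays left out the transcripts were still above the virgin level, by less after heterospecific mating. Virgin replicate 1 is then the only virgin array, so these differences have no virgin spread. The 3 bright conspecific arrays had a median of 0.44 above it, with 98 of the 100 above 0, and the 6 heterospecific arrays a median of 0.42, with 99 above 0. By time the bright conspecific arrays were 0.22, 0.43 and 0.60 above it at 15 min, 2 h and 6 h, and the heterospecific groups 0.16, 0.54 and 0.56. GI19172 and GI19603 were not above virgin replicate 1 on the bright conspecific arrays, and GI17300 was not on the heterospecific arrays. Set against each other alone, the 3 dim conspecific arrays had a median of 0.61 above virgin replicate 2, with 99 transcripts above 0. Virgin replicate 1 was below all 9 bright mated arrays for 41 of the 100, beside 8.43% of all transcripts. Virgin replicate 1 entered the choice, so these values too are descriptions.

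Within the day that holds both virgin arrays, the 5 conspecific arrays had a median of 0.42 above virgin, with 99 of the 100 above 0. The single heterospecific array of that day, heterospecific 15 min replicate 2, had a median of 0.32, with 94 above 0. The other day held no virgin array and gives no such value.

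Leaving out a virgin array altered the list more than leaving out any other single array, which kept 36 to 92 of the 100. When the rule was applied again without virgin replicate 1, 31 of the 100 were chosen again, and without virgin replicate 2, 24 were. GI21493, GI13961 and GI11971 were chosen in both cases. Without the 4 dim arrays 18 were chosen again, and 0 of the 100 were in all 3 of these rebuilt lists. At the edge of the list the gap that ranked the transcripts was 0.303 for GI20267 and 0.302 for GI23992, the last inside, and 0.298 for GI11948 and 0.295 for GI22553, the first outside, beside 1.15 for GI21493 at rank 1. Transcripts on either side of the edge therefore differed little in the value that chose them.

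The wording of the rule could also be read as removing only transcripts that were lower at 6 h than at 15 min in both matings. That wider reading kept 68 of the 100 and replaced the other 32. The highest ranked of the 32 was GI19988, with 8.88 and 6.91 in virgins and, at 15 min, 2 h and 6 h, conspecific means of 11.35, 10.97 and 9.97 and heterospecific means of 10.81, 10.71 and 10.97. It read lower with time after conspecific mating and not after heterospecific mating. Among the 32, GI23890 and GI17845, neither above background in virgins, passed the adjusted threshold for heterospecific mating against virgin. Their limma adjusted p was 0.00359 and 0.0227, and 0.103% of all transcripts passed. The same virgin gap had chosen the 32, so these calls too are descriptions. GI23890 was also 1.57 higher after heterospecific than conspecific mating over the 3 times (SE 0.20, limma adjusted p = 0.0177). In that comparison, which is not free of the choice either, 0.186% of all transcripts passed.

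The comparison of the matings asks whether these transcripts stood higher after mating with the other species. Since the means of both matings entered the rule, the medians and counts of the list are descriptions, and nothing particular to the list is read from them. Averaged over the 3 times, the median transcript was 0.19 higher after heterospecific than after conspecific mating on the log2 scale, with 82 higher and 18 lower, beside a median of -0.00 over all transcripts and 0.09 over the 8138 above background. At 15 min the median was 0.08 (62 higher, 38 lower), at 2 h 0.25 (80 and 20) and at 6 h 0.22 (84 and 16). At all 3 times 48 of the 100 were higher after heterospecific mating, beside 34.6% of the transcripts above background, and 3 were lower (GI15470, GI18159 and GI10503), beside 19.2%.

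None of the 100 passed the test of that difference. In limma's fit, with Benjamini-Hochberg adjustment over all 14519 transcripts, 0 passed over the 3 times (0.186% of all transcripts did), 0 at 15 min (0.0551%), 0 at 2 h (0.0207%) and 0 at 6 h (0.00689%). With an unadjusted p under 0.05 there were 10 over the 3 times, 0 at 15 min, 3 at 2 h and 2 at 6 h, against 19.8%, 3.29%, 7.82% and 9.84% of all transcripts. These shares of the list were below those of all transcripts, but its SEs were larger. The median SE of a transcript of the list was 0.17 over the 3 times and 0.29 at a single time. Over all transcripts it was 0.13 and 0.22. A smaller difference between the matings is therefore not read from the lower shares. The list's median difference over the 3 times was close to the SE of a single transcript, and the medians at single times were below it. Between the matings, the change from 15 min to 6 h differed for 0 of the 100 at an adjusted p under 0.05. The share of all transcripts was 0%. At an unadjusted p under 0.05 it differed for 0 of the 100 and 3.21% of all transcripts. The rule had used the 15 min and 6 h means of each mating, so these counts too are descriptions.

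The difference between the matings moved with the dim arrays, of which the conspecific groups held 3 and the heterospecific groups 0. Against the 3 bright conspecific arrays alone, the heterospecific arrays had a median difference of 0.00, with 51 transcripts higher and 49 lower. By time these medians were -0.07 at 15 min, 0.12 at 2 h and -0.00 at 6 h. With the image day as a block the median over the 3 times was 0.00. All the dim arrays were of the second day and every array of the first was bright. The block rests on the groups with arrays on both days, heterospecific 15 min and conspecific 6 h. The conspecific 6 h arrays are a dim and bright pair, so the block cannot tell day from brightness. Within the first day, the heterospecific 6 h arrays set against conspecific 6 h replicate 2 gave -0.00 (49 higher, 51 lower). These are the same arrays as in the bright comparison at 6 h, so the value is not a further check. Within the second day, heterospecific 15 min replicate 2 against the conspecific 15 min arrays, which include a dim array, gave 0.02 (52 higher, 48 lower). At 2 h no comparison within a day could be made, since both heterospecific arrays were of the first day and both conspecific arrays of the second.

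**Figure D5:**
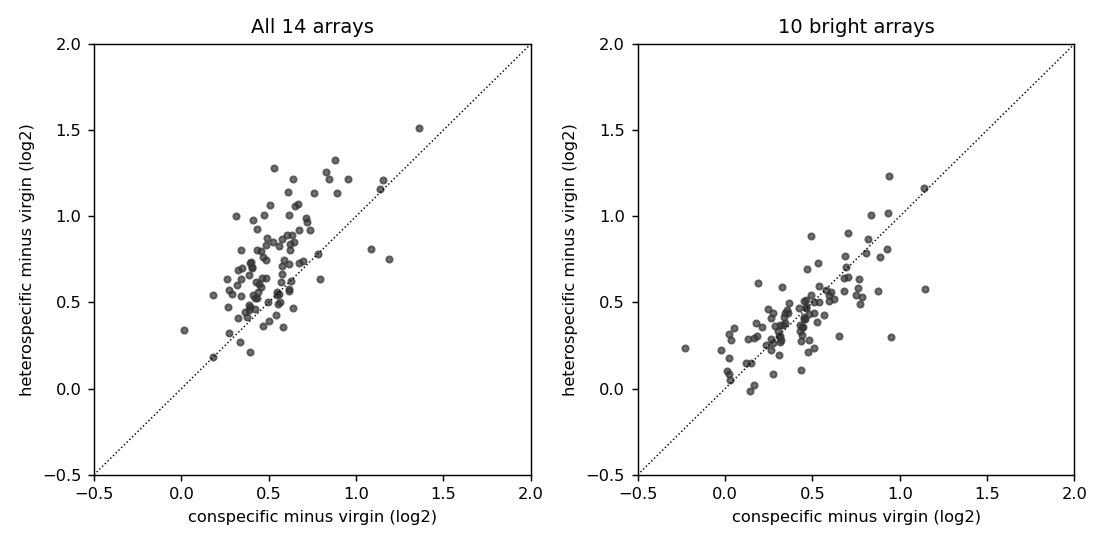
Log2 difference from virgin after heterospecific mating (vertical axis) against that after conspecific mating (horizontal axis) for each of the 100 transcripts over the 3 times, on all 14 arrays and on the 10 bright ones, with the dotted line marking equal values. Of the 100, 82 lie above the line and 18 below it on all arrays, and 51 and 49 on the bright ones; both axes share the virgin arrays.

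The lowest adjusted p of the list for the difference between matings was that of GI19603. Its levels were 12.27 and 12.03 in virgins, 12.30 and 12.22, 11.92 and 11.99, and 12.12 and 12.44 after conspecific mating, and 12.28 and 12.39, 12.36 and 12.42, and 12.84 and 12.66 after heterospecific mating. It was 0.33 higher after heterospecific mating over the 3 times (SE 0.09, limma adjusted p = 0.182), which did not pass. Its conspecific arrays lay on both sides of the virgin arrays, with a mean only 0.02 above them.

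GI15470 was the only transcript of the list that was lower after heterospecific mating at an unadjusted p under 0.05 over the 3 times. It measured 7.70 and 7.35 in virgins, 8.32 and 8.86, 8.14 and 8.58, and 8.75 and 9.63 after conspecific mating, and 8.34 and 7.74, 8.35 and 8.30, and 8.40 and 8.57 after heterospecific mating. Both virgin arrays were below all 12 mated arrays, and the difference of -0.43 between the matings did not pass (SE 0.18, limma adjusted p = 0.233).

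The list was also set beside 100 transcripts of the same virgin pattern that were lower at 6 h than at 15 min in both matings. The 236 transcripts with that decline in only 1 mating lie nearer to the list by rule. Only 102 transcripts had the decline in both matings, so the comparison group took nearly all of them, whereas the present list took 100 of 276. The median height of the comparison group over the 3 times after conspecific mating was 0.29, against 0.51, and its median level 8.17, against 10.08. In that group 46 were not above background in virgins, against 5 of the present list, and the dim array was the lower in all 4 groups for 14, against 52. Both virgin arrays were below all 12 mated arrays for 17, against 19. Both lists were chosen on these arrays and were cut at unlike depths of the ranking. These counts therefore describe them, were not tested, and are not read as tied to the change with time.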

How the data were processed

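Per the file headers, NimbleScan 2.4.67 wrote 1 perfect-match intensity for each of 71998 probes, most transcripts having 5. RMA is named in the submitters' processing notes, yet the table of values deposited with the series held the same raw intensities (0 probes differed), so normalization was done anew. Genome build and annotation are not given in the sources used here, and 0 of the array names matched the RefSeq gene table.

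Intensities were background-corrected (limma normexp, offset 50), quantile normalized and put on the log2 scale, and median polish gave 1 value per transcript (limma 3.58.1 in R 4.3.3). For dim transcripts the offset makes differences too small. All 14 arrays entered 1 limma fit with a mean per group, which left 7 residual degrees of freedom and gained 3.56 from the prior. P-values were 2-sided, adjusted by Benjamini-Hochberg across the 14519 transcripts and called under 0.05. The labels call the 2 arrays of a group biological replicates, and their number limits the precision. A transcript was above background in a group if at least 1 array lay more than 2 SDs above the mode of its values, the SD being taken from the side left of the mode. This limit stands in for control probes.

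The fit was tried on simulated data, for heterospecific against conspecific mating over the 3 times (14519 transcripts). Of added shifts of 1 log2 unit 79.1% were called, of 2 units 98.5% and of 3 units 100%, with 5 false calls. The simulated noise was independent between arrays and held no dim arrays. Shifts near the list's median of 0.19 were not tried, so the power for differences of that size is not known. Deviations from group means were compared between arrays of the same replicate number over 21 pairs of groups. The correlations ran from -0.63 to 0.51, and 8 were above 0.1. Virgin and conspecific 15 min, where replicate 2 was dim in both, had 0.51. Conspecific 2 h and 6 h, where replicate 1 was dim in both, had 0.13. Conspecific 15 min and 2 h, where opposite replicates were dim, had -0.63. Brightness and replicate number are thus mixed, so this check cannot decide whether the numbers pair samples. The transcripts named are the 6 highest ranked, the 4 at the edge, those called, and those behind a small count or marked as picked later. The list and these choices were made with earlier results of these data known.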

Additional observations from a re-analysis of the deposited data

How the results depend on the processing

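The counts of the 100 transcripts called between the matings stayed at 0 over the 3 times, at 15 min and at 2 h under every alternative run, and at 6 h under all but 1. That exception was the fit without the 4 dim arrays, where GI11511 had a difference of -1.43. In that fit the conspecific groups and virgins have 1 array each, taken to vary like the heterospecific groups, so no call is read from it. With a replicate block these counts were 0 and the 1 call of heterospecific mating against virgin (GI17459) became 0. That call was also 0 with no background correction, median scaling, the mean of the probes, a day block and array weights. It was lost without the 4 dim arrays and without virgin replicate 2, whereas more transcripts were called without virgin replicate 1. Fits with arrays left out have groups of 1 array, so nothing is read from their counts. The call of conspecific mating against virgin stayed at 0 with single arrays left out.

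The median height above virgin after heterospecific mating, 0.70, was 1.07 under median scaling, 0.44 with the day block and 0.42 without the dim arrays, and 0.42 to 0.98 with single arrays left out. The median after conspecific mating, 0.51, was 0.20 without virgin replicate 2 and 0.79 without virgin replicate 1. The median between the matings, 0.19, ran from 0.11 to 0.29 with single arrays left out, and was 0.43 under median scaling. Under median scaling the median of all transcripts was 0.14 and 0.09 for conspecific and heterospecific mating against virgin, in place of 0.01 in both, and -0.06 between the matings.

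The 19 transcripts with both virgin arrays below all mated ones became 7 under median scaling and 12 with the mean of the probes. The count was 41 without the dim arrays and 19 to 81 with single arrays left out. Leaving arrays out can only keep or raise this count, so no clearer separation is read from those values. Of the 100, the rebuilt list shared 18 without the dim arrays, 28 under median scaling, 45 with cyclic loess, 54 with normexp, quantile normalization and median polish, 55 with median polish, and 24 to 92 with single arrays left out. GI23992, the last of the list, had a difference from virgin after conspecific mating of 0.65, which ran from -0.046 without virgin replicate 2 to 1.34 without virgin replicate 1 and so changed sign. Alternatives on the virgin contrasts, the counts of separated transcripts and the rebuilt lists with median polish or offset 50 were chosen after seeing the data.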
